A study of Mus musculus with 9 samples.

Results

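A set of 10 genes of plaque-associated microglia, Apoe among them, were followed in mouse hippocampus: Apoe, Cd63, Cd68, Clec7a, Ctsz, Lpl, Trem2, Tyrobp, Cst7 and Itgax. They were chosen by name, and each probe annotated to one of them was taken, with no filter on missing values. The 10 genes, of 16637 gene symbols on the array, had 15 of its 29922 probes: 3 for Clec7a, 2 each for Cd68, Ctsz and Lpl, and 1 for each of the other 6 genes. The groups were 3xTG mice at 3 and at 12 months and WT mice at 3 and at 12 months, with 2 female mice in each and RNA from a single hippocampus of each mouse. The strain label of the 3xTG mice is B6;129Psen1tm1Mpm Tg (APPSwe,tauP201L) 1Lfa, and that of the WT mice is 129SV with C57BL6. In this line, mutant human APP and tau transgenes are driven in neurons by a Thy1 cassette, on a knock-in of mutant presenilin 1. The labels give the WT mice another strain, so genotype and strain background cannot be told apart. There were 3 comparisons, hybridised on 3 two-colour arrays each: 3xTG over WT at 3 months, 3xTG over WT at 12 months, and WT at 12 months over WT at 3 months. Arrays within a comparison shared mice, so n counts arrays and not animals.

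Microglia that gather at amyloid plaques change their transcript pattern. They lower genes of resting microglia such as P2ry12 and Tmem119, and raise genes of phagocytosis, lysosomes and lipid handling. The receptor TREM2 signals through its adaptor TYROBP, and in mouse models the full change requires Trem2. Apolipoprotein E carries lipid between brain cells; astrocytes make most of it in healthy brain, and plaque-associated microglia make it as well.

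The values are deposited log ratios, taken as log2 from their range, since the base is not stated, and each is read with the test sample on top. Across probes, pairs of arrays of the same comparison with swapped dyes had r of 0.197 to 0.308, and the sign as a whole rests on the labels. Each array listed 45.7 to 54.1% of the probes. Values between -0.5 and 0.5 are not in the table, so an unlisted probe may have had a small ratio or been left out otherwise. Array medians ran from -1.71 to 2.34, and log2 ratios are given after subtracting that median unless called deposited. This moved the unlisted band above the median on every array of 3xTG over WT at 12 months. It then ran from 0.37 to 1.37 on replicate 1 and from 1.21 to 2.21 on replicate 3. In WT ageing the band fell below the median on every array, from -1.915 to -0.915 on replicate 1. A deposited ratio near 0 would thus lie above the median at 12 months and below it in ageing. Probes of the same gene lay on the same side of the array median in 52.9% of the 11767 cases where both were listed. For the 10 genes this was so in 8 of 11 cases: 5 of 5 for Cd68, 2 of 2 for Lpl, 1 of 2 for Clec7a and 0 of 2 for Ctsz. Levels cannot be read from ratios, so whether the hippocampus labels fit their markers was not checked.

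In 3xTG over WT hippocampus at 12 months, Apoe lay above the array median on 3 of 3 arrays, Cd63, a membrane protein of late endosomes, on 2 of 2, and each of the 2 probes of Cd68, a lysosomal protein of macrophages, on 2 of 2. Itgax, the integrin chain known as CD11c, lay below it on 2 of 2. For Cd63 and for Cd68 probe mMR029318, the 2 arrays used the same 3xTG mouse. Of all probes, 29.7% of those listed on 3 arrays lay above the median on each, and of those listed on 2 arrays 29.9% lay above it on both and 31.2% below it on both. These sides hold after subtracting negative array medians: 1 value of Cd68 probe mMC007570 was -1.16 as deposited and -0.62 relative to abundant transcripts, and 1 of Cd63 was -0.43 relative to abundant transcripts. No probe of the 10 genes passed the test in any comparison. In whole hippocampus, fewer cells of a type and less RNA per cell cannot be told apart.

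**Figure D1:**
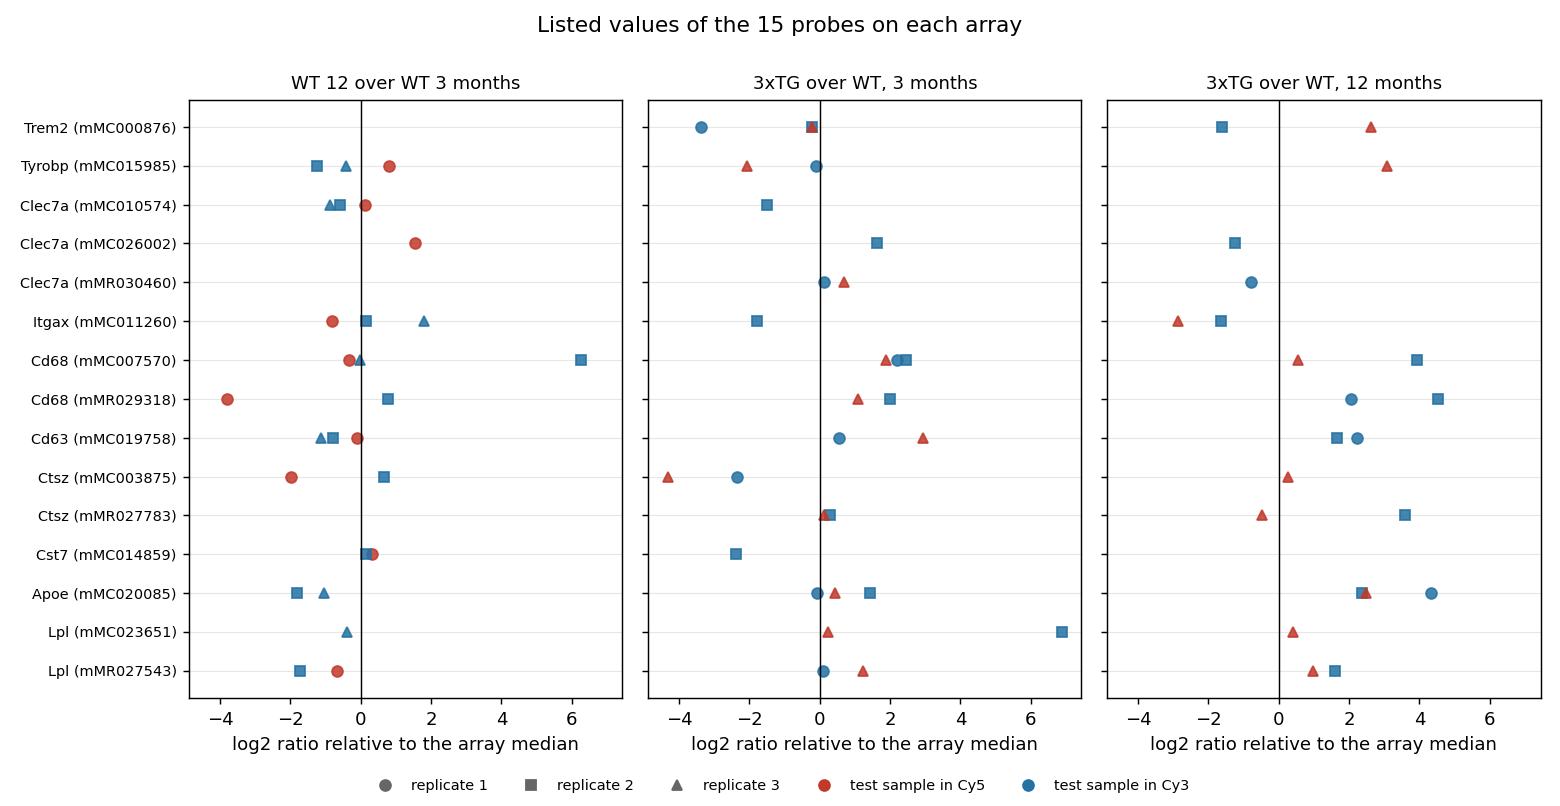
Listed log2 ratios of the 15 probes (rows) relative to the array median (horizontal axis), with 1 panel for each comparison and 1 symbol for each array; colour gives the dye of the test sample, and a missing symbol is a value not listed. At 12 months the 3 Apoe symbols sit between 2.37 and 4.32, while the 2 Trem2 symbols lie on opposite sides of 0.

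The main test took probes with 2 or more listed values in every comparison, which 5 of the 15 had: those of Apoe and Cd63, both of Cd68 and 1 of Lpl. Of all probes on the array, 12.4% met this filter. The test was limma's moderated test with a term for dye and a covariance for shared mice, adjusted by Benjamini-Hochberg over all probes. At 12 months 0 of these 5 probes passed, as did 0.0% of the 3644 tested. At 3 months and for WT ageing the count was also 0 of 5, against 0.0% of 3644, and for the difference between the genotype effects at the 2 ages 0 of 5, against 0.0% of 3696. At an unadjusted p under 0.05 there were 2 of the 5 probes above 0 at 12 months, Apoe and Cd63, against 14.5% of all probes above 0. There was no member below 0 at 12 months, against 2.09% of all, and none at 3 months or in WT ageing, where the shares of all probes were 9.17 and 2.25% above 0 and 4.23 and 9.5% below 0.

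The promoter windows of the 2 genes with a probe listed on 8 arrays, the most among the 10 genes, are given here as RefSeq holds them on GRCm38.p6. For Apoe, which has 3 windows, it is the one at chr7:19698572-19698871 on the minus strand, where capitals mark TATAAA on either strand, here as 2 overlapping matches; the other 2 Apoe windows hold none. The window shown is the only one of the 3 with a match to a motif searched here. It is not the one furthest upstream, which is at chr7:19699139-19699438. For Cd68 it is the window at chr11:69666121-69666420 on the minus strand, where capitals mark GGGCGG on either strand.
Apoe: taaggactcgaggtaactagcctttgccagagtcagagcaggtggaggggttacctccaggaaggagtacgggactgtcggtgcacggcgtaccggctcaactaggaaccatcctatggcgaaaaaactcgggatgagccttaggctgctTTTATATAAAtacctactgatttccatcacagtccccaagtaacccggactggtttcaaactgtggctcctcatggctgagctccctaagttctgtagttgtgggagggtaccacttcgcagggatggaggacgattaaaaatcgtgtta
Cd68: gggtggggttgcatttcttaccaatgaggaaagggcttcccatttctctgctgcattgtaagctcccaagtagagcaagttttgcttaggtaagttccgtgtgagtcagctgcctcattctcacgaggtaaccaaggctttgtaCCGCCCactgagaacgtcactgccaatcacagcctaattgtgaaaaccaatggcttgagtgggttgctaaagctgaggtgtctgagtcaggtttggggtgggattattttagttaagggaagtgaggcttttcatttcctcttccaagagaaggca
TATAAA is held by 13.6% of the 32851 windows of this length and GGGCGG by 35.7%. A motif bound by the myeloid factor PU.1, searched as GAGGAAGT on both strands, is held by 3.20% of windows. It was in none of the 11 windows found for 8 of the genes; Lpl and Tyrobp were not matched. These matches describe the letters of a window only.

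Apoe encodes apolipoprotein E, the main lipid carrier of the brain. In 3xTG over WT at 12 months its probe was at 4.32, 2.37 and 2.48 on the 3 arrays, from deposited values of 3.45, 1.50 and 0.77. At 3 months it was at -0.07, 1.43 and 0.43, from 0.77, 0.59 and 1.39, and in WT at 12 over 3 months at -1.82 and -1.03 on 2 arrays, from 0.52 and 0.93. Relative to the array median, the 3 arrays at 12 months thus lay above all the other listed ones. This order did not hold as deposited, where replicate 3 at 12 months, at 0.77, lay below 1.39 at 3 months and 0.93 in WT ageing. Every deposited Apoe value was above 0. Of the probes listed on all 3 arrays at 12 months, 29.7% lay above the array median on each, and 21.5% had deposited values above 0 on each.

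The fitted log2 ratio of Apoe at 12 months was 2.72 ± 0.92 (SE, n = 3 arrays; unadjusted p = 0.0198, limma adjusted p = 0.260). It was 1.57 without centring and 1.08 when arrays were centred on abundant transcripts, and the adjusted p ran from 0.0726 to 0.623 over the alternatives. At 3 months it was 0.33 ± 0.93 (limma adjusted p = 0.908), or -0.0896 relative to abundant transcripts. In WT ageing it was -2.01 ± 1.31 (limma adjusted p = 0.666), or 0.0145 without centring and 0.39 with missing values taken as 0, which also leaves the arrays without centring. The genotype effect at 12 months less the one at 3 months was 2.39 ± 1.30 (unadjusted p = 0.106, limma adjusted p = 0.737), or 0.66 without centring, so a difference between ages was not shown. Through the WT mice, 3xTG at 12 over 3 months came to 0.38 ± 1.51 (limma adjusted p = 0.999).

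Lpl, lipoprotein lipase, releases fatty acids from lipoproteins and is among the genes raised in plaque-associated microglia. Its 2 probes gave few values. Probe mMR027543 was at 1.59 and 0.97 in 3xTG over WT at 12 months, at 0.08 and 1.24 at 3 months and at -0.66 and -1.72 in WT ageing. It lay above the array median on each listed array of the genotype comparisons and below it in ageing. Of all probes listed on 2 arrays at 12 months, 29.9% lay above the median on both. Such shares at 3 months and in ageing were not taken. The fitted log2 ratio was 1.28 ± 0.97 (SE, 2 arrays; limma adjusted p = 0.553) at 12 months, 0.66 ± 0.97 (limma adjusted p = 0.803) at 3 months and -1.19 ± 0.97 (limma adjusted p = 0.770) in ageing. Without centring the value at 12 months was -0.011 and that in ageing 0.68, and relative to abundant transcripts the value at 12 months was -0.35, so these directions depend on the centring. The other probe, mMC023651, was listed on 4 arrays. It was at 0.41 on 1 array at 12 months, at 6.88 and 0.24 at 3 months and at -0.39 in ageing. The 6.88, on replicate 2 at 3 months, is the highest of the 15 probes relative to its array, and the other Lpl probe had no value on that array.

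Cd63 encodes a tetraspanin of late endosomes and secreted vesicles. It was at 2.22 and 1.66 in 3xTG over WT at 12 months, at 0.56 and 2.94 at 3 months and at -0.11, -0.78 and -1.14 in WT ageing. All 4 listed genotype values lay above the array median and all 3 ageing values below it, as did 22.2% of probes listed on those 3 arrays, while deposited values above 0 on all 3 were found for 58.4%. The deposited values were above 0 on all 7 arrays that listed it, from 0.79 to 3.90; among all 3008 probes listed on at least 7 arrays, 18.8% had deposited values above 0 only. The fitted log2 ratio was 2.67 ± 1.10 (SE, 2 arrays; unadjusted p = 0.0474, limma adjusted p = 0.296) at 12 months and 1.75 ± 0.88 (unadjusted p = 0.0901, limma adjusted p = 0.439) at 3 months. Without the dye term the value at 12 months was 1.94, the mean of both arrays, with an unadjusted p of 0.110 (limma adjusted p = 0.372), so the p under 0.05 depends on that term. It was 1.63 without centring and 0.35 relative to abundant transcripts. In ageing it was -0.51 ± 0.85 (limma adjusted p = 0.909), but 1.32 without centring. Both 12-month values came from arrays with the 3xTG sample in Cy3, which the dye term takes into account only through the other comparisons. Those arrays also used the same 3xTG mouse, so the 12-month values of Cd63 rest on a single 3xTG animal.

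Cd68 encodes a heavily glycosylated lysosomal protein used as a marker of phagocytic microglia and macrophages. Probe mMC007570 was at 3.94 and 0.55 in 3xTG over WT at 12 months, and at 2.21, 2.45 and 1.90 at 3 months. In WT ageing it was at -0.35, 6.25 and -0.02. The 3 values at 3 months lay close together, whereas in ageing replicate 2 stood apart, from a deposited value of 8.59 against 1.07 and 1.94. Of the probes listed on all 3 arrays at 3 months, 30.9% lay above the array median on each, and 34.2% had deposited values above 0 on each. The fitted log2 ratio was 2.25 ± 1.62 (SE, 2 arrays; limma adjusted p = 0.507) at 12 months, 2.07 ± 1.58 (SE, n = 3 arrays; limma adjusted p = 0.610) at 3 months and 2.21 ± 1.58 (limma adjusted p = 0.702) in ageing. Without the array that stood apart, the ageing value was 0.51. The wide errors at 3 months come from the spread over all comparisons, which the fit shares.

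The other Cd68 probe, mMR029318, was at 2.05 and 4.52 at 12 months, at 1.99 and 1.09 at 3 months and at -3.79 and 0.77 in ageing. Both arrays at 12 months used the same 3xTG mouse, and so did both at 3 months. Each genotype value of this probe thus rests on a single 3xTG animal. On the 5 arrays that listed both probes they lay on the same side of the array median each time. Its fitted log2 ratio was 2.28 ± 1.44 (SE, 2 arrays; limma adjusted p = 0.467) at 12 months and 1.54 ± 1.34 (limma adjusted p = 0.661) at 3 months. In ageing it was -1.51 ± 1.16 (limma adjusted p = 0.742), opposite in sign to the first probe, though 0.36 without centring. At 12 months the value of the first probe was 0.96 without centring and 0.62 relative to abundant transcripts, and that of the second 1.66 and 0.41. The genotype effect at 12 months less the one at 3 months was 0.18 ± 2.26 for the first probe and 0.73 ± 1.96 for the second, with limma adjusted p of 0.996 and 0.980. For Cd63 it was 0.92 ± 1.41 and for Lpl 0.62 ± 1.38, with adjusted p of 0.970 and 0.980.

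**Figure D2:**
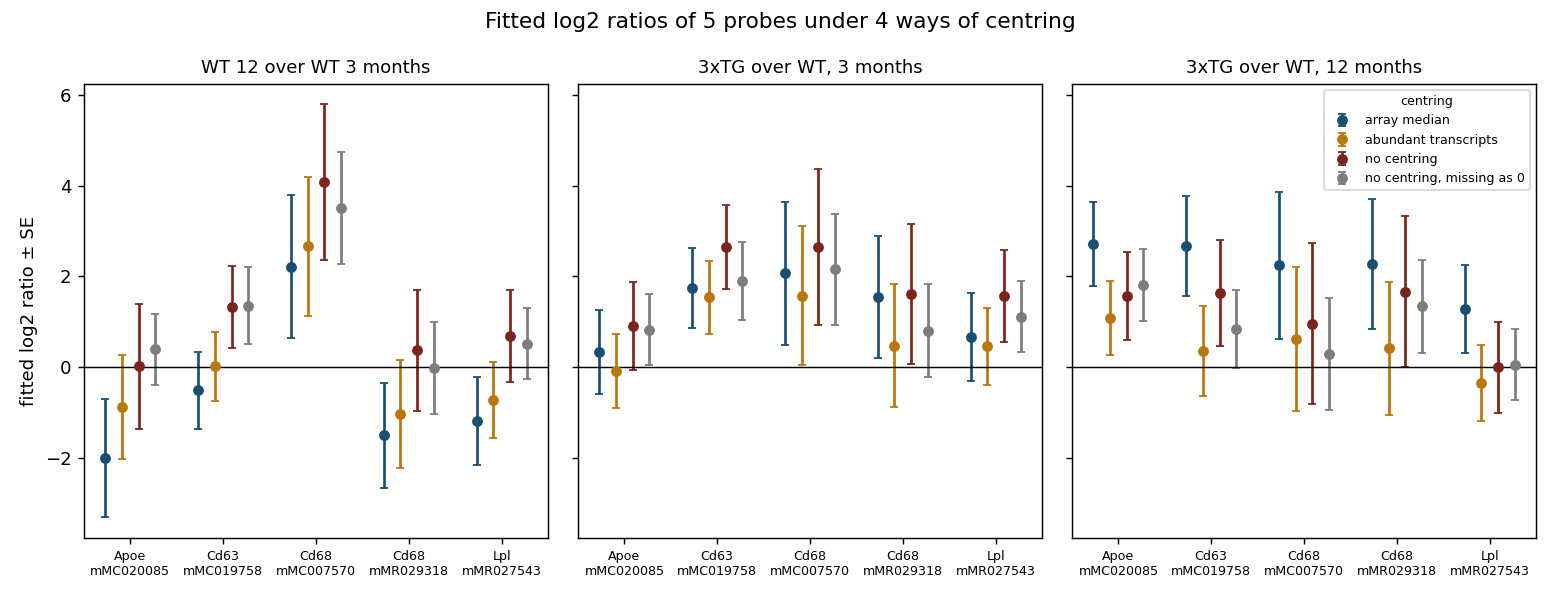
Fitted log2 ratios (vertical axis) of the 5 probes that entered the main test, with bars of 1 SE, under 4 ways of centring the arrays and 1 panel for each comparison. Apoe at 12 months stays above 0 in each of the 4, from 1.08 to 2.72, while its value in WT ageing spans -2.01 to 0.39.

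Trem2 encodes the microglial lipid-sensing receptor, and Tyrobp the adaptor that carries its signal. Trem2 was listed on 2 arrays at 12 months, at -1.62 and 2.62, which lie on opposite sides of the array median. At 3 months it was at -3.36, -0.21 and -0.21, all below the array median, as were 20.8% of probes listed on those 3 arrays, but the deposited values were -2.52, -1.04 and 0.76. No array of WT ageing listed it. Tyrobp was at 3.09 on the 1 array that listed it at 12 months, at -0.12 and -2.06 at 3 months and at 0.81, -1.24 and -0.43 in ageing. Tyrobp was at 1.38 as deposited at 12 months and at 0.73 and -1.09 at 3 months. Receptor and adaptor were both listed on 3 arrays, on the same side of the array median each time, but as deposited they lay on opposite sides of 0 on both of the 3-month arrays, so this depends on the centring.

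Clec7a encodes dectin-1, a receptor for fungal glucans that marks plaque-associated microglia, and its 3 probes were listed on 3 or 4 arrays each. At 12 months probe mMC026002 was at -1.24 on replicate 2 and probe mMR030460 at -0.79 on replicate 1, while mMC010574 had no value. At 3 months replicate 2 listed mMC010574 at -1.50 and mMC026002 at 1.64, so 2 probes of the same gene lay on opposite sides of the median of the same array. Probe mMR030460 was at 0.13 and 0.69 on the other 2 arrays. In ageing mMC010574 was at 0.12, -0.60 and -0.87, and mMC026002 was at 1.55 on replicate 1. Itgax was at -1.65 and -2.86 at 12 months, at -1.77 on 1 array at 3 months and at -0.81, 0.16 and 1.81 in ageing. Its genotype values were below 0 as deposited too, at -2.52, -4.57 and -2.61. All 3 genotype values of Itgax thus lay below the array median, while its ageing values lay on both sides.

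Ctsz encodes cathepsin Z, a lysosomal protease, and Cst7 encodes cystatin F, an inhibitor of such proteases. Ctsz probe mMC003875 was at 0.27 on 1 array at 12 months, at -2.35 and -4.31 at 3 months and at -1.97 and 0.67 in ageing. Probe mMR027783 was at 3.60 and -0.49 at 12 months and at 0.30 and 0.11 at 3 months, so the probes disagreed on the 2 arrays that listed both. Cst7 was not listed at 12 months. It was at -2.37 on 1 array at 3 months and at 0.32 and 0.15 in ageing.

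Fitted with no filter on missing values, 10 of the 15 probes gave a value at 12 months, 11 at 3 months and 9 in ageing, and 0 passed in each, as did 0.0% of the 14495, 14200 and 14537 probes fitted. Below 0 at an unadjusted p under 0.05 was Ctsz probe mMC003875 at 3 months, at -3.33 ± 1.15 (SE, 2 arrays; unadjusted p = 0.0344, limma adjusted p = 0.745), against 2.8% of all probes. Above 0 was Apoe at 12 months (unadjusted p = 0.0290), against 6.19%. No other fitted probe of the 10 genes reached that p, and the shares of all probes were 3.86% above 0 at 3 months, 1.59% below 0 at 12 months, and 1.33% above and 5.05% below 0 in ageing. The median of the fitted values was 1.90 at 12 months, with 9 of 10 above 0, against 0.21 for all probes, of which 54.0% were above 0. Tyrobp and Ctsz probe mMC003875 had 1 listed array each there. No Clec7a probe was fitted at 12 months, and the Clec7a values listed there lay below the array median. With the probes of a gene averaged, 7 of 9 genes were above 0, with a median of 1.75 against 0.39 for all genes. Of the 22 values listed at 12 months, 16 lay above the array median and 12 were above 0 as deposited. The median over fitted probes was 0.61 against -0.99 without centring (7 of 10 above 0), 0.38 against -1.49 relative to abundant transcripts (6 of 10), and 0.05 against -0.38 with missing values taken as 0. At 3 months the medians were 0.21 against -0.06, or -0.87 against -0.71 relative to abundant transcripts. In ageing they were -0.51 against -0.06 (1 of 9 above 0), or 1.32 against 1.84 without centring (9 of 9) and 0.012 against 0.59 relative to abundant transcripts (5 of 9). The share of all probes above 0 in ageing was not taken, and without centring their median was itself well above 0. Centring shifts all probes of an array alike, so these settings are not separate observations. The comparison at 12 months and that of ageing share the WT mice of 12 months, and those of genotype at 3 months and ageing share the WT mice of 3 months, so their values for the 10 genes are not independent.

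Other genes of plaque-associated microglia, such as Axl, Spp1, Gpnmb and Cd9, were described from a list of 32 genes, of which 31 had a probe. In the main test 4 of its probes entered and 0 passed in either direction in each comparison. Without the filter 20 probes were fitted at 12 months, 14 of them above 0, with a median of 1.09 against 0.21 for all probes; without centring 9 of the 20 were above 0 and the median was -0.17 against -0.99. The 17 genes of resting microglia had 4 probes in the main test and 0 that passed. Without the filter their median at 12 months was -0.34 against 0.21 for all probes, with 6 of 12 probes above 0. Without centring it was -1.60 against -0.99. Siglech, a lectin of resting microglia, had its 3 arrays at -0.83, -3.26 and -1.34 in 3xTG over WT at 12 months, with a fitted log2 ratio of -1.96 ± 1.00 (SE; limma adjusted p = 0.365). It was picked for having 1 sign on those 3 arrays, so the shared sign was set by the choice.

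The 20 complement and glial genes that rise around plaques had 5 probes in the main test, of which 0 passed in each comparison. Their unfiltered median at 12 months was 1.37 (8 of 10 above 0), against 0.21 for all probes. It was 0.13 against -0.99 without centring and -0.18 against -1.49 relative to abundant transcripts. Mpeg1, a pore-forming protein of macrophages and microglia, was at 3.37, 3.36 and 3.34 on the 3 arrays at 12 months, from deposited values of 2.50, 2.49 and 1.63. Its fitted log2 ratio was 3.64 ± 1.30 (SE; unadjusted p = 0.0242, limma adjusted p = 0.260). The list of cystatins, cathepsins and tetraspanins had 6 probes in the main test, and 0 passed. Unfiltered, 7 of its 13 probes were above 0 at 12 months with a median of 1.24, against 0.21 for all probes. Without centring 6 of 13 were above 0, with a median of -0.04 against -0.99. Cst3, which encodes cystatin C, was at 2.82, 1.59 and 2.66 at 12 months, with a fitted log2 ratio of 2.31 ± 0.88 (SE; limma adjusted p = 0.263). Ctso, cathepsin O, was at 1.79, 2.18 and 2.52, with a fitted log2 ratio of 2.29 ± 0.82 (SE; limma adjusted p = 0.263). Cst3, Ctso and Mpeg1 were picked for a small p and 1 sign on all 3 arrays at 12 months, so that shared sign was set by the choice. They were above 0 as deposited on all 3 arrays as well, as were 21.5% of all probes listed on those arrays.

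Apolipoprotein E receptors and lipid-handling genes had 1 probe in the main test and 0 that passed. Unfiltered, 10 of 13 probes were above 0 at 12 months with a median of 1.15, against 0.21 for all probes. Without centring the median was -0.26, against -0.99 for all probes. The list of TREM2, its adaptor and their signalling, which holds Trem2 and Tyrobp, had 3 probes in the main test, of which 0 passed. Its unfiltered median at 12 months was 0.27 (6 of 10 above 0), against 0.21 for all probes, or -1.17 against -0.99 without centring, and -1.09 (3 of 9 above 0) at 3 months against -0.06, or -0.18 (4 of 9) against 0.20 without centring.

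Markers of other cell types were set beside these genes. At 12 months the unfiltered median was 1.48 for neurons (9 probes), 1.36 for oligodendrocytes (6), 0.71 for astrocytes (5), 0.22 for perivascular macrophages and blood myeloid cells (4), 0.04 for endothelial and mural cells (6) and -1.64 for choroid plexus (5), and no probe passed. In the main test astrocytes had 1 probe above and 2 below 0, with a median of -0.10 against 0.58 for all probes. Neurons had 1 above and 1 below 0 there, with a median of 0.50. Relative to abundant transcripts the medians were -0.15 for neurons, -0.31 for oligodendrocytes and -1.57 for astrocytes, against -1.49 for all probes. Over the 3 arrays the median of listed marker values ran from -0.16 to 1.78 for astrocytes, the main source of Apoe, from -0.42 to 0.55 for resting microglia and from -1.72 to 0.75 for perivascular macrophages. Gfap, an intermediate filament of astrocytes, had 2 probes at 12 months: 1 at 4.65 and -3.02, the other at -3.84. Mrc1, the mannose receptor of perivascular macrophages, was at 0.75 on 1 array. Mbp, a myelin protein, was at 3.27, 2.53 and 3.41, but the oligodendrocyte list went both ways, with 3 of 6 unfiltered probes above 0, and 1 above and 2 below 0 in the main test (median -0.32). Ttr, made by choroid plexus, was at -3.57, -3.49 and -3.73. Cldn5, a tight junction protein of endothelium, was at 2.27 on 1 array. The only red blood cell probe was listed at 12 months with values from -1.40 to 0.02. The part of these cell types in the values of the 10 genes was not tested.

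**Figure D3:**
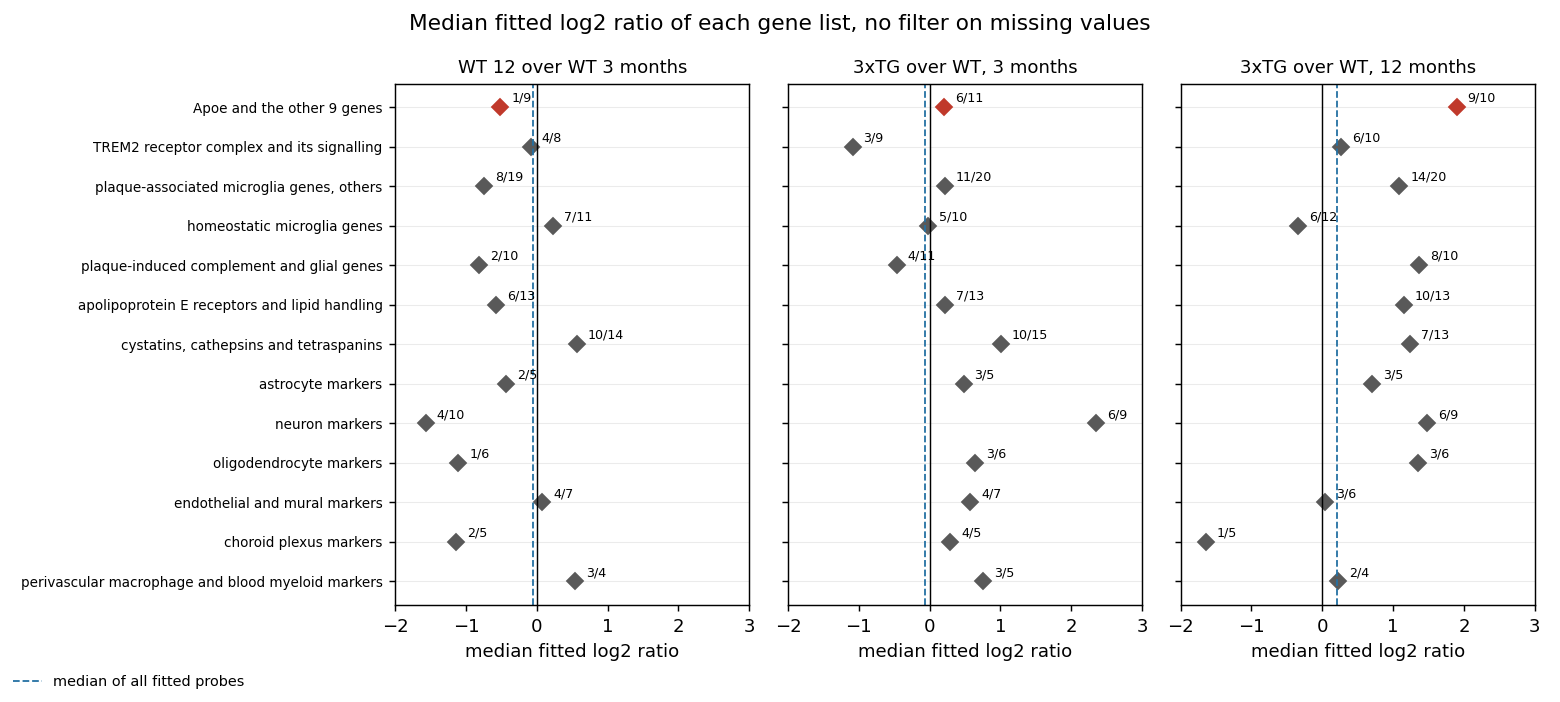
Median fitted log2 ratio (horizontal axis) of each gene list (rows) with no filter on missing values, with 1 panel for each comparison; labels give the probes above 0 over those fitted, and the dashed line is the median of all fitted probes. At 12 months the list led by Apoe sits at 1.90 and neuron markers at 1.48, both right of the dashed line at 0.21; centred on abundant transcripts they were 0.38 and -0.15, against -1.49 for all probes.

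Among 182 probes with a gene symbol and at least 8 arrays in common with Apoe, those with the pattern most like it were Mrpl12 (Pearson r = 0.96), Dgcr2 (r = 0.95) and Itpk1 (r = 0.94), each over 8 arrays. For Cd68 probe mMC007570 they were Wasl (r = 0.72), Ap4s1 (r = 0.64) and Olfr820 (r = 0.59) of 165 probes. Apart from Apoe and this Cd68 probe, no probe of the 10 genes was listed on 8 arrays. These coefficients describe arrays that share mice and the shift of each array, and they are the highest of many.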

How the data were processed

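The authors deposited 1 table of log ratios, taken here as log2, which leaves many probes of each array unlisted, from 2-colour hybridisations of linearly amplified RNA, per the labels' protocols. The sources used here do not state the scanner, background correction, filter or normalization; depth has no meaning for arrays, and their number limits the precision. Gene symbols came from the platform annotation: 21020 probes had a single symbol, and 2728 symbols were updated through RefSeq (GRCm38.p6) synonyms. The median of each array's listed values was subtracted. Generalised least squares gave 1 coefficient per comparison, with a dye term. The covariance for shared mice used a variance ratio of 1.02 (restricted maximum likelihood, 142 probes listed on every array). Moderated statistics came from limma 3.58.1 (R 4.3.3), adjusted by Benjamini-Hochberg over all probes, at a threshold of 0.05. The filter required 2 arrays in each comparison. The fit was tested on simulated data. Named are all 10 genes; in other lists, up to 3 genes of smallest p at 12 months with one sign on all 3 arrays, which some lists lacked; and, for cell types, the first marker. Mbp, Cldn5, Ttr, Gfap and Mrc1 are such markers. The genes and lists were chosen with earlier results of these data known. Alternatives covered centring, missing values, covariance, dye, the V number in the labels, the number of the array within its comparison, probes of a gene, and left-out arrays. Nothing in the labels says how the arrays differ beyond mice, dyes and the V number.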

Additional observations from a re-analysis of the deposited data

How the results depend on the processing

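No probe was called in the 3 comparisons, and none of the 15 probes was called in any setting. Over all probes, treating arrays as independent called 66 in WT ageing and 56 for genotype at 3 months, and taking missing values as 0 called 48 and 21. With missing values taken as 0, the median of each array was 0, so this setting was also without centring. Its variance ratio for shared mice was 0, so it treated arrays as independent too. Of 187 values of single probes under alternatives other than a left-out array, 161 kept their direction. With an array left out, 185 of 194 did. Some of these values could not turn. The fit without the filter repeats the main values, and leaving out an array of another comparison often left a value unchanged. The values that turned are given here, and the cause was not tested beyond what the setting does. Without centring, values in WT ageing became 1.32 for Cd63, 0.0145 for Apoe, 0.68 for Lpl and 0.36 for Cd68 probe mMR029318, and Lpl at 12 months became -0.011. The difference of genotype effects became -1.69 for Cd68 probe mMC007570, -1.02 for Cd63 and -1.58 for Lpl. Relative to abundant transcripts, Cd63 in ageing was 0.012, Apoe at 3 months -0.0896, Lpl at 12 months -0.35, and the difference -0.96 and -0.0578 for the Cd68 probes, -1.18 for Cd63 and -0.80 for Lpl. With missing values as 0, ageing gave 1.35 for Cd63, 0.39 for Apoe and 0.52 for Lpl, and the difference was -1.87 for Cd68 probe mMC007570, -1.06 for Cd63 and -1.05 for Lpl. That Cd68 difference was -0.0411 without the dye term, and the Lpl difference -0.0733 with a term for the V number. Averaging the probes of a gene gave a Lpl difference of -0.27 and Cd68 in ageing 0.38. With 1 array left out, Cd63 in ageing ran from -0.88 to 0.23 (above 0 without ageing replicate 1) and Cd68 probe mMR029318 at 3 months from -0.13 to 2.87 (below 0 without replicate 3 at 3 months). The difference ran from -0.18 to 1.39 for Cd63 (below 0 without replicate 1 at 3 months), from -0.24 to 1.48 for Lpl (below 0 without that array or replicate 2 at 12 months) and from -1.36 to 1.51 for Cd68 probe mMR029318 (below 0 without replicate 2 at either age). Apoe in 3xTG at 12 over 3 months ran from -0.48 to 0.985 (below 0 without ageing replicate 2 or replicate 1 at 3 months). Apoe at 12 months ran from 2.43 to 3.14.

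No clear pairing of samples by the array numbers in the labels was seen. Deviations of same-numbered arrays correlated at -0.06 to 0.17 over 9 pairs, 2 of them over 0.1, and different-numbered ones at -0.17 to 0.14. These correlations cannot exclude a pairing, since deviations within a comparison are tied together and arrays share mice across numbers. With the number as a replicate block the fit covered 2400 probes and again called 0; the difference of genotype effects for Cd68 probe mMC007570 became -0.61. Some alternatives could not give a value for a probe listed on few arrays: for Ctsz probe mMC003875 at 3 months these were the V number term, the replicate block and the loss of 4 of the arrays.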
